A study of Homo sapiens with 12 samples.

Results

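Overexpression of the KLF5 missense form E419Q was studied in HCC95, a human lung squamous cell carcinoma cell line. The comparison rests on 4 of the 12 samples of the series: 2 libraries from HCC95 cells overexpressing KLF5 E419Q (A and B) and 2 from HCC95 cells carrying the empty vector (A and B). They were chosen by their labels alone, and no measured value entered the choice. Both groups share the cell line and a vector. The sources used here do not name the vector, its promoter, any selection or the harvest time, nor say whether the cells were clonal. Poly(A) RNA was sequenced and counted per gene. Whether libraries A and B come from different cultures is not stated by the labels. The p-values therefore speak only to the spread between these libraries, and that spread may be technical. The question is which genes change when this mutant is overexpressed on top of the KLF5 that the cells already make. The empty vector adds no KLF5, so the changed residue and the higher KLF5 level cannot be told apart in this comparison.

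KLF5 is a transcription factor of proliferating epithelium, found in the basal layer of squamous tissue and in intestinal crypts. It binds GC-rich boxes in promoters and enhancers through zinc fingers at its C-terminal end, and the changed glutamate lies in that DNA-binding part. In E419Q this acidic residue is replaced by glutamine, its uncharged amide. KLF5 is known both for driving cell cycle and epithelial genes and for changing its targets with its partners, such as SOX2 and TP63 in squamous cancers.

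The files held 3074139 and 3364760 assigned counts for E419Q A and B and 3455397 and 4643792 for empty vector A and B. Levels are given as CPM, counts scaled to the same library total, on which 3 counts equal 0.646 to 0.976 CPM. The wild-type KLF5 libraries of the same cell line, WT A and B, entered the fit only to estimate the spread. Libraries of a group differed by more than counting noise alone, with a chi-square per degree of freedom of 1.5 for E419Q and 1.88 for the empty vector. Between libraries of different groups it was 8.69 to 9.88. The squamous markers TP63, KRT5, KRT14, KRT17, SOX2 and DSG3 were present in all 4 libraries, with KRT5 at 10724 and 11308 CPM with E419Q against 14491 and 14127 CPM with the empty vector. Of 12 fibroblast markers 3 passed the filter on low counts, and LUM, FAP and POSTN were at 0 in all 4 libraries. The 12 summed to 143.8 to 162.3 CPM with E419Q and 109.4 to 111.7 CPM with the empty vector, mostly from COL6A1 and THY1, of which COL6A1 was raised. Of 9 endothelial markers only VWF passed and was raised (sum 27.7 to 30.0 CPM against 12.5 to 14.8 CPM), and KDR, PLVAP, EMCN and CLDN5 were at 0. Of 14 immune markers only CD68 passed and was lowered (edgeR adjusted p = 0.00479, adjusted p = 0.222 with DESeq2; sum 52.7 to 54.1 CPM against 66.3 to 68.6 CPM), while CD3D, CD3E and CSF1R were at 0. The labels name only the HCC95 line and no other cell type. Whether these marker reads come from the line itself or from other cells was not tested. In bulk RNA, fewer cells of a type and less RNA per cell cannot be told apart.

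The overexpressed gene serves as a check of the labels. KLF5 (ENSG00000102554.9) stood at 427 and 442 CPM in the E419Q libraries and 149.9 and 136 CPM in the empty vector libraries, so the groups lay far apart. The rise was 2.99-fold (log2 fold change 1.58, SE 0.0681, edgeR adjusted p = 1.17e-13). Per transcript length the difference was wider. RSEM, the program that assigned reads to transcripts, also gives TPM, a level per transcript length. TPM stood at 454 and 439 with E419Q against 90.2 and 86.2 with the empty vector. RSEM weighted KLF5 to a shorter transcript in the E419Q cells. Its abundance-weighted length was 1539 and 1625 bases with E419Q and 2578 and 2487 bases with the empty vector, a log2 difference of -0.68. That was the largest difference among 3276 genes with at least 200 counts in each library, whose median absolute difference was 0.0346 and 99th percentile 0.362. The plot of KLF5 counts, TPM and length by library shows all 3 quantities. Reads from the vector and from the cell's own gene were not told apart, so the share of KLF5 messages that carry the change is not known from these values.

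**Figure D1:**
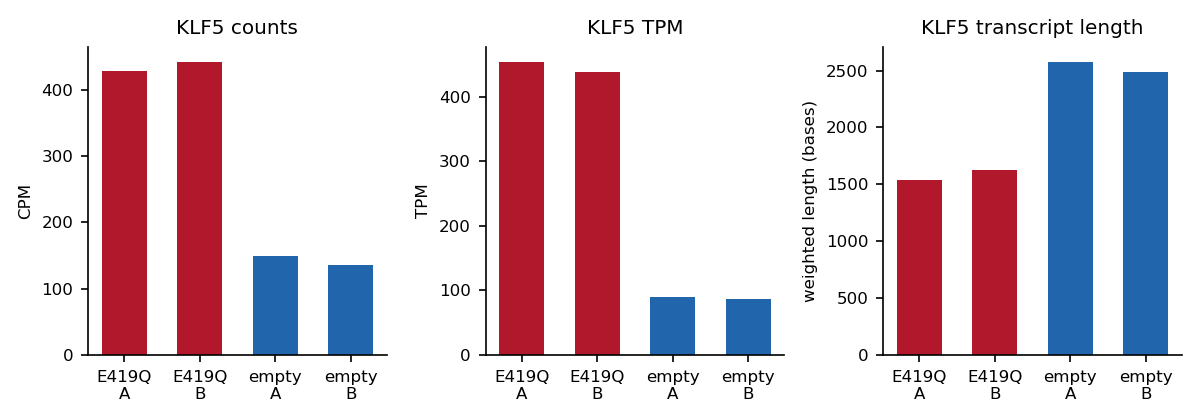
KLF5 in each library, as CPM (left), TPM (middle) and the abundance-weighted transcript length in bases (right), with E419Q libraries in red and empty vector libraries in blue. Bars start at 0 and each is 1 library: KLF5 stands at 427 and 442 CPM with E419Q against 149.9 and 136 CPM, while the weighted length falls from 2578 and 2487 to 1539 and 1625 bases.

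Between E419Q and empty vector cells a large share of the transcriptome differed, mostly by small amounts. Of 12933 genes tested, 2737 (21.2%) passed an adjusted p of 0.05 in edgeR's quasi-likelihood test, with 1340 raised (10.4%) and 1397 lowered (10.8%). A change of at least 2-fold was seen in 336 raised genes (2.6%) and 198 lowered genes (1.53%), and of at least 4-fold in 84 and 48. Among called genes, rises were larger than falls, with a median log2 fold change of 0.62 among raised and -0.46 among lowered genes. Over all genes tested the median was 0.004. The raised and lowered sets differed in level, with medians of 32.7 and 85.1 CPM in the empty vector libraries. A gene of low level needs a larger change to be called, and the part of this in the sizes was not tested. Both E419Q libraries lay above both empty vector libraries for 1339 of the 1340 raised genes, and below them for 1391 of the 1397 lowered genes. Over all 12933 genes tested, called or not, the groups lay apart in 7621, so with 2 libraries a group such separation is common. The counts of called genes depend on the test and on the number of libraries. DESeq2 called 451 raised and 512 lowered genes, 167 and 99 of them at least 2-fold. Without E419Q A 862 genes were raised and 899 lowered, and without E419Q B 822 and 804.

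**Figure D2:**
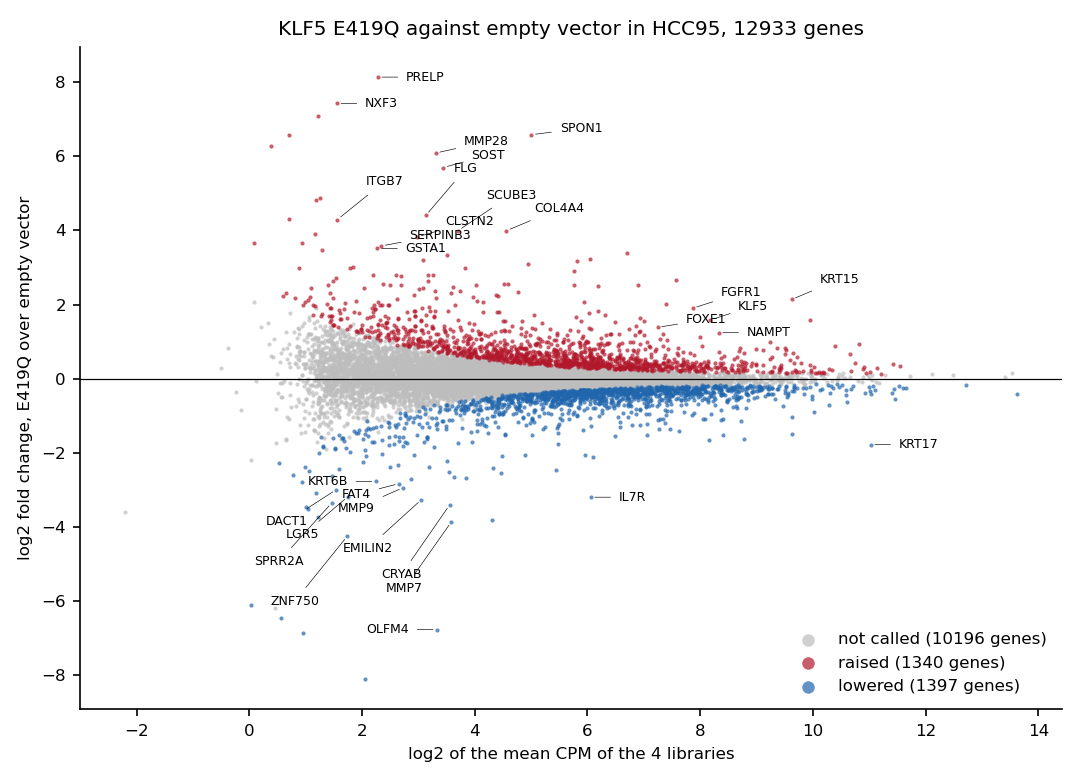
Log2 fold change of E419Q over the empty vector (vertical) against the log2 of the mean CPM of the 4 libraries (horizontal), 1 point a gene, with genes raised (red), lowered (blue) or not called (grey) at an adjusted p of 0.05. The tallest labelled rises (PRELP, NXF3, SPON1) start from near 0 in the empty vector cells. OLFM4 is the lowest labelled point, and KRT15 and KRT17 stand out at high level in opposite directions.

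The 12 largest rises and falls were taken among called protein-coding genes with at least 5 CPM in the higher group and no overlap between groups. SPON1 (ENSG00000152268.8), a secreted extracellular matrix protein of the spondin family, stood at 64.1 and 63.3 CPM with E419Q against 0.579 and 0.646 CPM with the empty vector (log2 fold change 6.58, SE 0.282, edgeR adjusted p = 1.1e-13). The E419Q libraries were nearly equal, and the level in the control was that of 5 counts in all. PRELP (ENSG00000188783.5), a leucine-rich matrix proteoglycan, gave 0 counts in both empty vector libraries and 11.7 and 7.73 CPM with E419Q, at least 26.0-fold higher against a floor of 3 counts over the group (edgeR adjusted p = 2.2e-06). NXF3, of the mRNA export factor family, was likewise at 0 and rose to 5.2 and 6.54 CPM, at least 15.9-fold higher (edgeR adjusted p = 2.75e-05). MMP28, the matrix metalloproteinase epilysin of keratinocytes, had 125 counts against 2, a ratio of 78.6 (95% counting interval 21.3 to 656). SOST, the secreted WNT inhibitor sclerostin, had 138 counts against 3, a ratio of 57.9 (95% counting interval 19.4 to 284). Both passed the edgeR test (adjusted p = 2.56e-09 and 2.08e-09), and their groups did not overlap.

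The basement membrane collagen chain COL4A4 (ENSG00000081052.10) went from 2.32 and 3.01 CPM with the empty vector to 44.6 and 44.6 CPM with E419Q (log2 fold change 3.99, SE 0.221, edgeR adjusted p = 1.07e-11). SCUBE3, a secreted glycoprotein, stood at 26.0 and 23.2 CPM with E419Q against 1.16 and 1.72 CPM with the empty vector (log2 fold change 3.99, edgeR adjusted p = 3.21e-09). For CLSTN2, a membrane protein of the calsyntenin family, the levels were 14.6 and 14.9 CPM with E419Q against 1.16 and 0.861 CPM with the empty vector (log2 fold change 3.82, edgeR adjusted p = 1.95e-07). In each of these 3 genes the E419Q libraries lay close together and far above the control. ITGB7, the integrin subunit beta 7, had 36 counts against 2, a ratio of 22.6 (95% counting interval 5.83 to 194, edgeR adjusted p = 0.00019). FLG, the filaggrin of the cornified layer, rose as well, but its E419Q libraries differed widely at 26.3 and 7.43 CPM, against 0 and 1.29 CPM (log2 fold change 4.40, edgeR adjusted p = 2.53e-05). SERPINB3, a squamous protease inhibitor, stood at 7.48 and 11.3 CPM with E419Q against 0.868 and 0.646 CPM with the empty vector (log2 fold change 3.58, edgeR adjusted p = 1.15e-05), and GSTA1, a glutathione transferase, at 7.81 and 10.1 CPM with E419Q against 0.579 and 0.861 CPM with the empty vector (log2 fold change 3.51, edgeR adjusted p = 1.23e-05). SERPINB3 and GSTA1 have close paralogs among which RSEM divides shared reads, so their levels are uncertain to that extent. Leaving out any of the 4 libraries ended none of these 12 calls.

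The 12 largest falls were led by OLFM4. OLFM4 (ENSG00000102837.6), a secreted glycoprotein known from intestinal crypt stem cells, had 167 counts with the empty vector (15.6 and 24.3 CPM) and 1 count with E419Q, a ratio of 133 (95% counting interval 23.5 to 5275) in the control's favour (edgeR adjusted p = 1.74e-08). ZNF750, a transcription factor of terminal epidermal differentiation, fell from 52 to 2 counts, a ratio of 20.7 (95% counting interval 5.44 to 175, edgeR adjusted p = 7.54e-05). IL7R (ENSG00000168685.10), the interleukin-7 receptor subunit, was the most abundant of the 12 largest falls, with 14.6 and 12.2 CPM with E419Q against 108 and 131 CPM with the empty vector (log2 fold change -3.20, SE 0.143, edgeR adjusted p = 2.2e-13). Matrilysin, MMP7, stood at 0.976 and 2.08 CPM with E419Q against 20.8 and 24.1 CPM with the empty vector (log2 fold change -3.87, edgeR adjusted p = 1.38e-08), and gelatinase B, MMP9, at 1.95 and 1.19 CPM with E419Q against 8.97 and 14.4 CPM with the empty vector (log2 fold change -2.94, edgeR adjusted p = 2.89e-05). CRYAB, the small heat shock protein alpha-B crystallin, stood at 1.30 and 2.67 CPM with E419Q against 24.3 and 18.7 CPM with the empty vector (log2 fold change -3.41, edgeR adjusted p = 8.33e-08). In all of these the E419Q libraries lay well under the control libraries.

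EMILIN2, an elastic-fibre matrix glycoprotein, stood at 0.976 and 2.08 CPM with E419Q against 16.8 and 13.4 CPM with the empty vector (log2 fold change -3.27, edgeR adjusted p = 1.01e-06). FAT4, a large atypical cadherin, stood at 0.976 and 2.08 CPM with E419Q against 11.9 and 10.3 CPM with the empty vector (log2 fold change -2.83, edgeR adjusted p = 1.61e-05). Keratin KRT6B stood at 0.651 and 1.78 CPM with E419Q against 5.79 and 10.8 CPM with the empty vector (log2 fold change -2.77, edgeR adjusted p = 0.000328), with the caveat that the KRT6 genes share reads. The control libraries disagreed on LGR5, a WNT-pathway stem cell receptor, with 8.97 and 3.23 CPM, against 0.651 and 0.594 CPM with E419Q (log2 fold change -3.19, edgeR adjusted p = 0.00144, adjusted p = 0.0834 without empty vector A). DACT1, a WNT regulator, stood at 0.976 and 0.297 CPM with E419Q against 6.08 and 4.31 CPM with the empty vector (log2 fold change -3.00, edgeR adjusted p = 0.00158, adjusted p = 0.0548 with DESeq2 and 0.0585 without E419Q B). SPRR2A, a cornified envelope protein with near-identical paralogs, had 40 counts in the control and 3 with E419Q, a ratio of 10.6 (95% counting interval 3.38 to 53.6, edgeR adjusted p = 0.000619, adjusted p = 0.0509 with DESeq2). LGR5, DACT1 and SPRR2A were the 3 of the 12 largest falls whose call did not hold in every alternative. Under the same limits on level and overlap, genes not annotated as protein-coding were led by the imprinted H19 transcript among the falls, from 38.5 and 35.1 CPM to 2.28 and 2.97 CPM (log2 fold change -3.81, edgeR adjusted p = 1.51e-10), and by AC009469.1 among the rises, from 1.45 and 1.72 CPM to 15.0 and 15.8 CPM (log2 fold change 3.20, edgeR adjusted p = 3.36e-07). RP1-152L7.5 rose too, from 7.24 and 6.68 CPM to 37.4 and 44.9 CPM (log2 fold change 2.54, edgeR adjusted p = 1.27e-09), and Z83851.1 by a log2 fold change of 1.87 (edgeR adjusted p = 0.0075, adjusted p = 0.22 with DESeq2, 0.0777 without E419Q A and 0.0763 without empty vector A). LINC00623 fell from 5.5 and 4.74 CPM to 0.325 and 1.49 CPM (log2 fold change -2.44, edgeR adjusted p = 0.00362, adjusted p = 0.122 with DESeq2 and 0.0823 without E419Q A), as did RP11-277P12.20, from 10.7 and 6.68 CPM to 2.28 and 2.67 CPM (log2 fold change -1.79, edgeR adjusted p = 0.00181). Whether counting used strand is not stated, so transcripts that overlap another gene are uncertain.

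**Figure D3:**
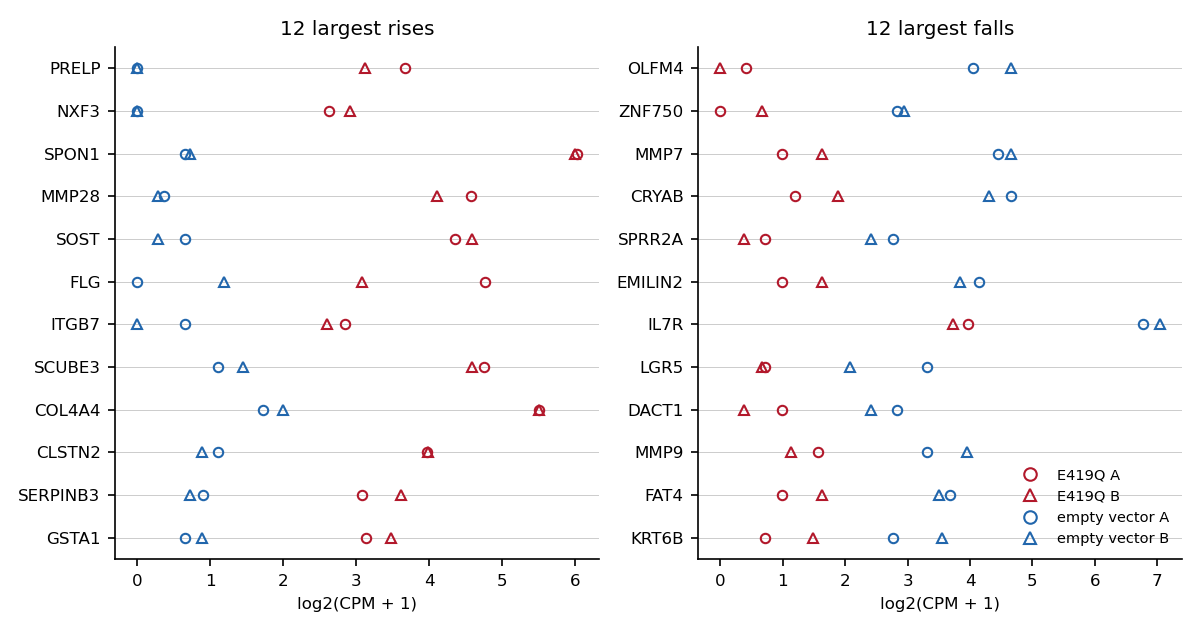
Level of the 12 largest rises (left) and 12 largest falls (right) in each library, as log2(CPM + 1), with E419Q in red and the empty vector in blue, circles for library A and triangles for library B. In every row the red and blue symbols stand apart; FLG among the rises and LGR5 among the falls show wide gaps between libraries of a group.

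FOXE1 (ENSG00000178919.7), a forkhead transcription factor, and NAMPT (ENSG00000105835.7), the rate-limiting enzyme of NAD salvage, were described separately because the study is remembered to have singled them out. FOXE1 stood at 217 and 224 CPM with E419Q against 90.3 and 76.4 CPM with the empty vector, a 2.61-fold rise (log2 fold change 1.38, SE 0.0856, edgeR adjusted p = 6.6e-11). NAMPT stood at 466 and 442 CPM with E419Q against 190.4 and 186 CPM with the empty vector, a 2.36-fold rise (log2 fold change 1.24, SE 0.0635, edgeR adjusted p = 2.89e-12). For both genes the libraries of a group lay close together and the groups far apart, and both calls held in every alternative.

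Promoter sequences of FOXE1, NAMPT and of 3 of the most changed genes, PRELP and COL4A4 (raised) and OLFM4 (lowered), are shown because KLF factors act through GC-rich boxes. Each runs 300 bases, from 250 before to 50 after the RefSeq start, on GRCh38.p14, written 5′ to 3′ along the gene's strand. Capitals mark matches, on either strand, to GGGAGNGG, GGGCGNGG, GGGGGNGG or GGGTGNGG, a KLF-type box with A, C, G or T ahead of its central GNGG; matches may overlap.
FOXE1 promoter, chr9:97852976-97853275, plus strand: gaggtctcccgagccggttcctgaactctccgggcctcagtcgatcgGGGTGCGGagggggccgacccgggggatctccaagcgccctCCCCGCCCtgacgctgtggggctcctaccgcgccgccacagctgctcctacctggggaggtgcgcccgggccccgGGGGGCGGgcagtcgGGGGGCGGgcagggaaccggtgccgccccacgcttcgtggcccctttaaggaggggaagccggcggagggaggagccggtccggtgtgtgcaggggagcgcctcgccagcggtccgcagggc
NAMPT promoter, chr7:106284934-106285233, minus strand: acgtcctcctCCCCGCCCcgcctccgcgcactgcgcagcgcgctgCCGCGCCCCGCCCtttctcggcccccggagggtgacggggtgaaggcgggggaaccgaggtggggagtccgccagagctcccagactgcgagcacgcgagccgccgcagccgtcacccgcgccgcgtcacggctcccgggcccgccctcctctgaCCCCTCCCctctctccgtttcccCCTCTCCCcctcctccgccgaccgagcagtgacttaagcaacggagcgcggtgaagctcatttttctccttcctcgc
PRELP promoter, chr1:203475556-203475855, plus strand: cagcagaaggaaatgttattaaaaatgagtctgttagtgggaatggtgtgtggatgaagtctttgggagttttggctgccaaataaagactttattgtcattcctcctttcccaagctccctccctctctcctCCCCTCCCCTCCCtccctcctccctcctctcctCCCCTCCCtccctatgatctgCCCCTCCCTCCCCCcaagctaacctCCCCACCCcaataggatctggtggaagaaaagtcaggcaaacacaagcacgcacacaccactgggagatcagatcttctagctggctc
COL4A4 promoter, chr2:227164156-227164455, minus strand: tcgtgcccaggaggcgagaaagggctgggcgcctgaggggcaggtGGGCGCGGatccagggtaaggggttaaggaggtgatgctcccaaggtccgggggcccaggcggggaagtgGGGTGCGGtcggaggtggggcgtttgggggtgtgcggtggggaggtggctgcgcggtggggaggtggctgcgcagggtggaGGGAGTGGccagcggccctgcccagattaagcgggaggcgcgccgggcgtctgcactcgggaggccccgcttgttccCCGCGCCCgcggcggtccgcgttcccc
OLFM4 promoter, chr13:53028563-53028862, plus strand: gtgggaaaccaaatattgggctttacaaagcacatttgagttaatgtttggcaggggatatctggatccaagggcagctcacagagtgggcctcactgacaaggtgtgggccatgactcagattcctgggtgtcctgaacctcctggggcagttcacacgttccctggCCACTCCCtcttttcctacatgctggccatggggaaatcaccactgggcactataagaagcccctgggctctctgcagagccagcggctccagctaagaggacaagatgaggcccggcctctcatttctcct

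These windows differ in which box they hold. FOXE1 has 1 GGGCGNGG, 2 GGGGGNGG and 1 GGGTGNGG matches, and NAMPT has 2 GGGAGNGG and 3 GGGCGNGG. PRELP has 4 GGGAGNGG, 1 GGGGGNGG and 1 GGGTGNGG matches, all on the strand opposite to the one printed, and COL4A4 has 1 GGGAGNGG, 2 GGGCGNGG and 1 GGGTGNGG. OLFM4, first among the 12 falls, has 1 GGGAGNGG match. The choice of PRELP, COL4A4 and OLFM4 followed no stated rule, and the 5 windows do not stand for the changed genes. Among other large changes, the windows of CLSTN2, ITGB7, GSTA1 and EMILIN2 held matches, and those of FLG, IL7R and DACT1 held none. A gene can have several listed promoters, and only the first listed was read for these windows. Over 27305 RefSeq promoters, the first listed for each gene symbol, 24.7% hold GGGAGNGG, 30.7% GGGCGNGG, 26.8% GGGGGNGG and 17.4% GGGTGNGG. The shares are higher among the 9795 tested protein-coding genes with a promoter in the table. There 32.0% hold GGGAGNGG, 50.5% GGGCGNGG, 40.0% GGGGGNGG and 19.9% GGGTGNGG in the first listed promoter. With any listed promoter counted, 39.3% of these genes hold GGGAGNGG and 58.0% GGGCGNGG. A count over the raised genes is void, because only 73.7% of the 285 protein-coding genes raised at least 2-fold and 78.9% of the 1253 raised in all had a promoter in the table, under the 80% set as a minimum. A match is a description of the letters and not a measured binding site.

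Groups of genes are described by how many tested members were raised or lowered, beside the 10.4% raised and 10.8% lowered and the median log2 fold change of 0.004 over all genes. In brackets after a count stand the counts from leaving out 1 library, or from DESeq2, where they lie more than 1.5 times away. The lists share some genes. A gene near 0 in 1 group passes the filter on low counts only through the other group, so counts over tested members describe the list and support nothing further. In each list, members named beyond the 3 with the smallest adjusted p were picked for naming after their values were seen. The plot of the lists shows every tested member of those with 10 or more.

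**Figure D4:**
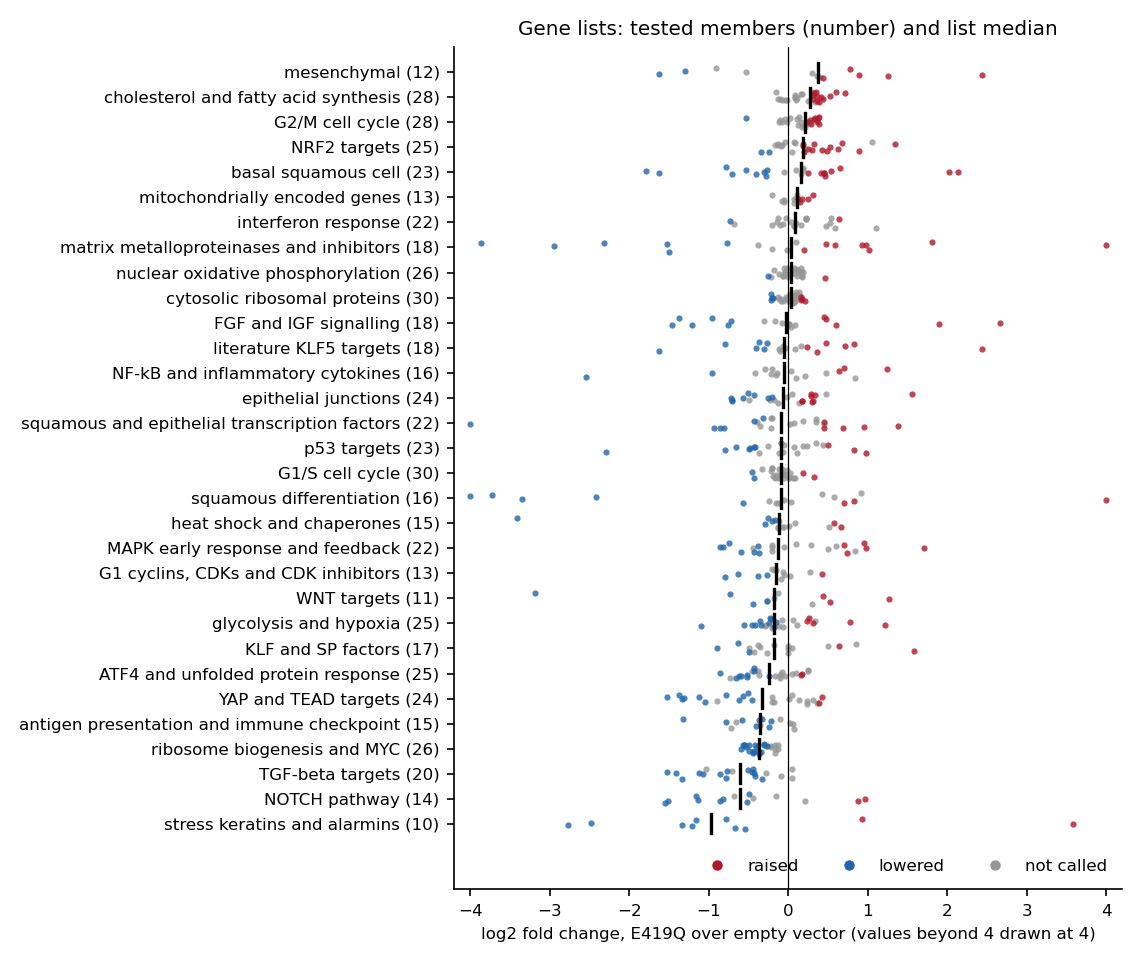
Log2 fold change (E419Q over empty vector) of each tested member of 31 gene lists, raised in red, lowered in blue and not called in grey, with the list median as a black bar and the number tested in brackets. The lists run from the stress keratins and alarmins at the bottom (median -0.97), through NOTCH and TGF-beta (-0.60 each), to the cholesterol list near the top (0.28).

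Genes of basal squamous cells were called in both directions. All 23 genes of basal squamous cells were tested, and 9 were raised and 9 lowered, with a median of 0.16. KRT15 (ENSG00000171346.9), a keratin of quiescent basal cells, rose from 288 and 287 CPM to 1225 and 1353 CPM, a 4.40-fold change (log2 fold change 2.14, SE 0.0645, edgeR adjusted p = 6.84e-16). NGFR, the low-affinity neurotrophin receptor that marks basal stem cells, rose from 71.5 and 59.7 CPM to 269 and 271 CPM (log2 fold change 2.02, SE 0.0852, edgeR adjusted p = 1.1e-13). KRT17, the keratin of activated basal cells, fell from 3502 and 2928 CPM to 878 and 1027 CPM (log2 fold change -1.78, SE 0.0758, edgeR adjusted p = 1.1e-13). LAMB3, a laminin chain of the epidermal basement membrane, rose by a log2 fold change of 0.54 (edgeR adjusted p = 1.61e-06). The dominant keratin KRT5 was lower by a smaller amount, at 10724 and 11308 CPM with E419Q against 14491 and 14127 CPM with the empty vector (log2 fold change -0.41, edgeR adjusted p = 1.38e-07). The lineage factor TP63 rose by a log2 fold change of 0.45 and the desmosomal plaque gene PKP1 by 0.66, and CAV1, S100A2 and DSG3 fell by 0.71, 0.78 and 0.53 on the log2 scale.

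Keratins and alarmins of the stressed or wounded epidermis were mostly lower. Of 15 genes of that list, 10 were tested, and 2 were raised and 8 lowered (5 without E419Q A, 4 with DESeq2), with a median of -0.97. KRT16, the partner of KRT6 in wounds, fell from 88.6 and 58.6 CPM to 12 and 14.3 CPM (log2 fold change -2.48, SE 0.194, edgeR adjusted p = 2.74e-09). KRT6A fell from 779 and 741 CPM to 564 and 498 CPM (log2 fold change -0.55, edgeR adjusted p = 7.67e-07), and S100A9, a subunit of calprotectin, from 73.8 and 51.7 CPM to 20.2 and 29.4 CPM (log2 fold change -1.33, edgeR adjusted p = 4.92e-06). The raised pair was SERPINB3 and LCN2, lipocalin 2, which rose by a log2 fold change of 0.93. The protease inhibitor PI3 was called lowered although its libraries overlapped, at 42.3 and 80.5 CPM with E419Q against 128 and 70.2 CPM with the empty vector (log2 fold change -0.67, edgeR adjusted p = 0.0307, adjusted p = 0.607 with DESeq2, 0.458 without E419Q A and 0.501 without empty vector A). KRT6A, KRT6B and KRT6C share reads, as do KRT16 and KRT17 in part, so their single levels are uncertain.

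Of 30 genes of squamous differentiation, 16 were tested, and 3 were raised and 5 lowered (2 with DESeq2), with a median of -0.09, the same with SPRR1A at its bound. The mucosal keratins fell: KRT4 from 40.2 and 27.8 CPM to 4.23 and 8.32 CPM (log2 fold change -2.41, SE 0.248, edgeR adjusted p = 2.05e-07), and KRT13 from 3257 and 3404 CPM to 2176 and 2426 CPM (log2 fold change -0.56, edgeR adjusted p = 4.27e-08). SPRR1A, a small proline-rich gene of the cornified envelope, had 32 counts in the control and 0 with E419Q, at least 8.48-fold lower (edgeR adjusted p = 0.000221), and DESeq2 gave it no adjusted p. SPRR1B had 36 counts against 2, a ratio of 14.3 (95% counting interval 3.68 to 123, edgeR adjusted p = 0.000959, adjusted p = 0.0648 with DESeq2), and the call of SPRR2A was lost with DESeq2 as well (adjusted p = 0.0509). In contrast the plakin genes PPL and EVPL, which link the envelope to keratin, rose by log2 fold changes of 0.83 and 0.70 (edgeR adjusted p = 3.99e-07 and 1.31e-06). Loricrin (LOR), CRNN and LCE3D were at 0 in all 4 libraries. Of 8 genes listed as keratins of simple epithelium, 5 were tested, and 3 were raised and 1 lowered (2 without E419Q A), with a median of 0.35. KRT8, KRT18 and KRT19 rose and KRT80, a listed keratin that is not confined to simple epithelium, fell. KRT8 went from 1199.6 and 1243 CPM to 2447 and 2349.7 CPM (log2 fold change 0.94, SE 0.0522, edgeR adjusted p = 1.07e-11) and KRT18 from 493 and 542 CPM to 976 and 909 CPM (log2 fold change 0.83, edgeR adjusted p = 1.58e-09). KRT80 went from 233 and 209 CPM to 91.7 and 84.7 CPM (log2 fold change -1.35, edgeR adjusted p = 6.91e-11). The plot of keratins and envelope genes shows these opposite shifts.

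**Figure D5:**
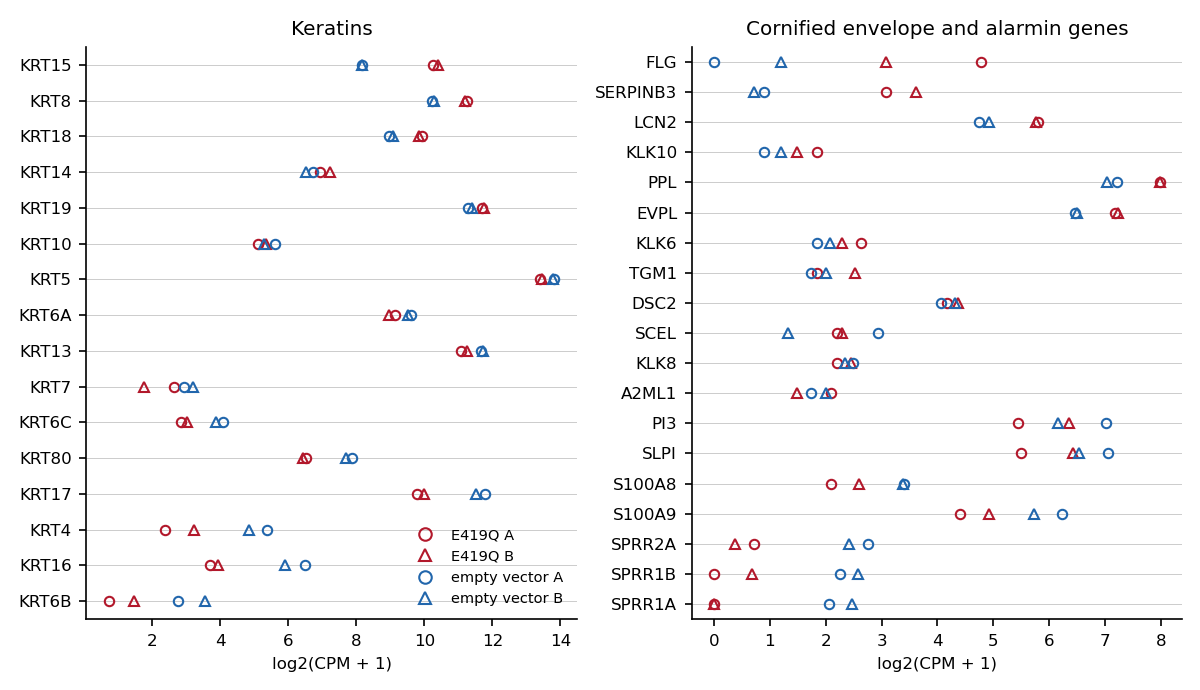
Level in each library, as log2(CPM + 1), of the tested keratins (left) and of the tested cornified envelope, kallikrein and alarmin genes (right), sorted by log2 fold change, with E419Q in red, the empty vector in blue, circles for A and triangles for B. KRT15, KRT8 and KRT18 head the keratins and KRT6B, KRT16 and KRT4 close them; PI3 and SCEL are rows where the groups overlap.

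Of 23 transcription factors of squamous and other epithelia, 22 were tested, and 5 were raised and 6 lowered (3 with DESeq2), with a median of -0.09. SOX2, the squamous oncogene amplified in lung squamous cancer, rose from 56.7 and 53 CPM to 108 and 109 CPM (log2 fold change 0.96, SE 0.0951, edgeR adjusted p = 1.25e-07). EHF, an epithelium-specific ETS factor, fell from 422 and 422 CPM to 219.6 and 256 CPM (log2 fold change -0.86, SE 0.0688, edgeR adjusted p = 4.57e-09). RUNX1 fell by 0.93 on the log2 scale. Together with the rise of FOXE1 and TP63 and the fall of ZNF750, members of this list moved in both directions.

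Junction genes also divided. Of 25 junction genes, 24 were tested, and 8 were raised (5 without empty vector B, 4 without E419Q A, 3 without E419Q B and with DESeq2) and 8 lowered (5 without E419Q A, 4 without E419Q B and with DESeq2), with a median of -0.07. Cingulin, CGN, of the tight junction plaque, rose from 14.2 and 14.4 CPM to 43.3 and 42.8 CPM (log2 fold change 1.55, SE 0.158, edgeR adjusted p = 1.63e-07), and the claudins CLDN4 and CLDN7 fell by 0.70 and 0.71 on the log2 scale (edgeR adjusted p = 7.04e-08 and 1.63e-06). Of 20 mesenchymal genes, 12 were tested, and 5 were raised (3 without empty vector A or empty vector B, 2 without E419Q B and with DESeq2) and 2 lowered (1 with DESeq2), with a median of 0.38. S100A4 rose from 1.16 and 1.29 CPM to 6.83 and 7.13 CPM (log2 fold change 2.44, edgeR adjusted p = 0.000486) and the matrix protein SPARC from 86.2 and 87.6 CPM to 151 and 153 CPM (log2 fold change 0.78, edgeR adjusted p = 3.16e-07), and N-cadherin, CDH2, fell from 132 and 138 CPM to 51.7 and 60.0 CPM (log2 fold change -1.30, edgeR adjusted p = 1.49e-09).

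Of 21 matrix proteases and inhibitors, 18 were tested, and 8 were raised (5 without E419Q B and with DESeq2) and 6 lowered, with a median of 0.04. Secreted MMP7, MMP9 and MMP13 fell, while MMP28, MMP11 and the membrane-bound MMP15 rose. MMP13, collagenase 3, stood at 3.25 and 0.892 CPM with E419Q against 13.6 and 7.11 CPM with the empty vector, and MMP11, stromelysin 3, at 9.76 and 14.3 CPM with E419Q against 3.47 and 3.23 CPM with the empty vector (edgeR adjusted p = 0.000886 and 0.000223). The tissue inhibitors TIMP2 and TIMP3 rose by log2 fold changes of 1.02 and 0.98. PLAT, tissue plasminogen activator, fell from 506 and 491 CPM to 157 and 195 CPM (log2 fold change -1.53, SE 0.0765, edgeR adjusted p = 1.88e-12).

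Genes of NOTCH and TGF-beta signalling were mostly lower. Of 20 NOTCH pathway genes, 14 were tested, and 2 were raised and 8 lowered (5 with DESeq2), with a median of -0.60. The receptors NOTCH3 and NOTCH1 and the ligand JAG1 fell: NOTCH3 from 129 and 137 CPM to 44.9 and 48.4 CPM (log2 fold change -1.55, SE 0.100, edgeR adjusted p = 1.39e-10), NOTCH1 from 209.5 and 216 CPM to 112 and 128 CPM (log2 fold change -0.85, edgeR adjusted p = 1.63e-07) and JAG1 from 586 and 569 CPM to 271 and 265 CPM (log2 fold change -1.14, edgeR adjusted p = 4.42e-12). The raised members were LFNG, which modifies the receptors with sugar, and the target gene HEY1, with log2 fold changes of 0.88 and 0.96. The target HES1 was not called, at 37.4 and 38.3 CPM with E419Q against 33.3 and 31.0 CPM with the empty vector (edgeR adjusted p = 0.277).

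Of 21 TGF-beta targets, 20 were tested, and none was raised and 14 lowered (6 with DESeq2), with a median of -0.60. PMEPA1, a feedback inhibitor of SMAD signalling, fell from 249 and 317 CPM to 109 and 110.0 CPM (log2 fold change -1.41, SE 0.0992, edgeR adjusted p = 5.69e-10). ID1, an inhibitor of differentiation, fell from 212 and 225 CPM to 118 and 127 CPM (log2 fold change -0.86, edgeR adjusted p = 7.67e-07), and the ligand gene TGFB2 from 70.9 and 52.8 CPM to 30.6 and 28.8 CPM (log2 fold change -1.07, edgeR adjusted p = 7.96e-06). CYR61, which also belongs to the YAP and TEAD targets, fell from 189 and 205 CPM to 79.0 and 61.8 CPM (log2 fold change -1.52, edgeR adjusted p = 1.03e-10). All 24 YAP and TEAD targets were tested, and 2 were raised and 11 lowered (7 with DESeq2), with a median of -0.33. Tissue factor, F3, fell from 451 and 451 CPM to 239 and 186 CPM (log2 fold change -1.12, edgeR adjusted p = 9.14e-10) and FJX1 from 1039 and 1073 CPM to 488 and 554 CPM (log2 fold change -1.05, edgeR adjusted p = 1.63e-11). Of 20 WNT targets and antagonists, 11 were tested, and 3 were raised and 4 lowered (1 without E419Q B), with a median of -0.17. The antagonist SFRP1 rose from 65.1 and 74.5 CPM to 168 and 179 CPM (log2 fold change 1.27, edgeR adjusted p = 4.96e-10), and DKK1 fell from 119 and 141 CPM to 96.0 and 66.3 CPM (log2 fold change -0.73, edgeR adjusted p = 0.000614, adjusted p = 0.0621 without E419Q B).

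FGFR1 (ENSG00000077782.15), a receptor often amplified in squamous lung cancer, rose from 93.8 and 100.1 CPM to 357 and 385 CPM, a 3.73-fold change (log2 fold change 1.90, SE 0.0740, edgeR adjusted p = 3.4e-14). FGF2, one of its ligands, fell from 64.2 and 65.2 CPM to 24.1 and 24.1 CPM (log2 fold change -1.46, SE 0.123, edgeR adjusted p = 1e-08). IGFBP6, which binds IGF2 in preference, rose from 52.1 and 49.7 CPM to 319.8 and 339 CPM (log2 fold change 2.67, SE 0.0825, edgeR adjusted p = 6.84e-16), while IGFBP3 and IGFBP5 fell by 1.37 and 1.21 on the log2 scale. The insulin receptor substrates IRS1 and IRS2 fell by 0.95 and 0.76. Of 19 genes of FGF and IGF signalling, 18 were tested, and 5 were raised and 6 lowered, with a median of -0.03. Of 12 EGFR family receptors, ligands and regulators, 7 were tested, and 2 were raised (1 without E419Q B and with DESeq2) and 1 lowered (2 without E419Q A or empty vector A), with a median of -0.12. ERBB2 rose from 121 and 127 CPM to 214 and 226 CPM (log2 fold change 0.79, edgeR adjusted p = 4.76e-08), the ligand TGFA fell from 50.1 and 57.7 CPM to 27.3 and 17.5 CPM (log2 fold change -1.32, edgeR adjusted p = 3.28e-06), and EGFR was not called at 508 and 524 CPM with E419Q against 466 and 624 CPM with the empty vector (edgeR adjusted p = 0.366). ERBB3 rose by a log2 fold change of 0.55 (edgeR adjusted p = 0.00152, adjusted p = 0.0877 with DESeq2 and 0.0752 without E419Q B).

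Of 24 genes of the MAPK early response and its feedback, 22 were tested, and 5 were raised (3 without E419Q A and with DESeq2) and 7 lowered (3 without E419Q B and with DESeq2), with a median of -0.13. The ERK-responsive ETS factors ETV4 and ETV5 rose, ETV4 from 35.9 and 36.8 CPM to 128 and 115 CPM (log2 fold change 1.71, SE 0.109, edgeR adjusted p = 1.03e-10) and ETV5 from 27.2 and 25 CPM to 53 and 51.4 CPM. The ERK phosphatase DUSP6 rose from 52.4 and 48.7 CPM to 108 and 92.7 CPM (log2 fold change 0.96, edgeR adjusted p = 5.99e-07). The early-response factor JUN instead fell from 111 and 90.4 CPM to 64.4 and 57.1 CPM (log2 fold change -0.75, edgeR adjusted p = 3.97e-05). The feedback genes DUSP4, DUSP5, SPRY2 and SPRY4 were called in edgeR too, but not with DESeq2 (DESeq2 adjusted p = 0.498, 0.482, 0.364 and 0.332). The genes named here do not stand for the list, in which more members were lowered than raised.

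Genes of cholesterol and fatty acid synthesis moved only upward where they were called. Of 29 genes of this list, 28 were tested, and 12 were raised (6 without E419Q A) and none lowered, with a median of 0.28. FDPS, farnesyl diphosphate synthase, rose from 143 and 165 CPM to 278 and 241 CPM (log2 fold change 0.71, SE 0.0848, edgeR adjusted p = 1.6e-06). LSS, lanosterol synthase, rose from 170.5 and 165 CPM to 252 and 239.8 CPM (log2 fold change 0.52, edgeR adjusted p = 2.44e-05), and the stearoyl-CoA desaturase SCD from 2297 and 2364 CPM to 3130.0 and 3126 CPM (log2 fold change 0.39, edgeR adjusted p = 1e-06). The regulator SREBF2 rose by a log2 fold change of 0.42. The rises were small, none reaching 2-fold.

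Of 26 NRF2 targets of antioxidant defence and detoxification, 25 were tested, and 13 were raised (8 with DESeq2) and 2 lowered (1 without empty vector A), with a median of 0.19. UGDH, UDP-glucose dehydrogenase, rose from 65.4 and 53.8 CPM to 148 and 158 CPM (log2 fold change 1.34, SE 0.102, edgeR adjusted p = 1.66e-09). AKR1C1, an aldo-keto reductase with close paralogs, rose from 994 and 857 CPM to 1759.5 and 1746 CPM (log2 fold change 0.89, edgeR adjusted p = 1.51e-10). The aldehyde dehydrogenase ALDH3A1 rose from 1248 and 1219 CPM to 1939 and 2075 CPM (log2 fold change 0.67, edgeR adjusted p = 1.09e-09). NQO1, a classical target of NRF2, had 651 and 643 CPM with E419Q against 596 and 595 CPM with the empty vector (edgeR adjusted p = 0.26) and was not called.

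Of 28 genes of glycolysis and the hypoxia response, 25 were tested, and 5 were raised (3 without E419Q A and with DESeq2) and 11 lowered (7 with DESeq2, 6 without E419Q B), with a median of -0.18. The glucose transporters moved in opposite directions: SLC2A1 rose from 407 and 397 CPM to 697 and 712 CPM (log2 fold change 0.78, SE 0.0553, edgeR adjusted p = 6.11e-10) and SLC2A3 fell from 229.8 and 207 CPM to 110.0 and 97.8 CPM (log2 fold change -1.10, edgeR adjusted p = 1.59e-09). NDRG1, a hypoxia-induced gene, rose from 55.0 and 47.6 CPM to 126 and 116 CPM (log2 fold change 1.21, edgeR adjusted p = 1.23e-07), whereas glycolytic enzymes such as ENO1 and LDHA fell by 0.41 and 0.35 on the log2 scale. All 25 genes of the ATF4 and unfolded protein responses were tested, and 2 were raised (1 without E419Q B, 0 without E419Q A, empty vector A, WT A or WT B and with DESeq2) and 9 lowered, with a median of -0.24. ATF4 itself fell from 425 and 425 CPM to 284 and 289 CPM (log2 fold change -0.60, SE 0.0598, edgeR adjusted p = 1.32e-07). The amino acid transporter SLC7A5 fell from 1939 and 1829 CPM to 1363 and 1137 CPM (log2 fold change -0.62, edgeR adjusted p = 1.89e-07) and MTHFD2, of mitochondrial folate metabolism, from 225 and 231 CPM to 164 and 163 CPM (log2 fold change -0.51, edgeR adjusted p = 8.9e-06). All 15 heat shock factors and chaperones were tested, and 2 were raised and 5 lowered (3 without E419Q B), with a median of -0.11. BAG3 and HSPA1B were the raised pair, with log2 fold changes of 0.66 and 0.58, and CRYAB showed the widest fall.

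In the list of ribosome biogenesis, 18 of 26 genes were lowered, by less than 2-fold, and 8 were not called. The list includes MYC and was tested in full. None of its genes was raised, DESeq2 called 12 of them lowered, and the median was -0.37. Every member had a negative log2 fold change, from -0.60 to -0.13. ODC1, ornithine decarboxylase, fell from 258 and 259 CPM to 173 and 188 CPM (log2 fold change -0.55, SE 0.0702, edgeR adjusted p = 4.82e-06). The pseudouridine synthase DKC1 fell from 339 and 319 CPM to 227 and 249.9 CPM (log2 fold change -0.49, edgeR adjusted p = 1.25e-05) and the nucleolar PA2G4 from 379 and 393 CPM to 296 and 291 CPM (log2 fold change -0.43, edgeR adjusted p = 2.2e-05). MYC, the driver of this programme, fell from 287 and 272 CPM to 228 and 213 CPM (log2 fold change -0.37, edgeR adjusted p = 0.000337). All 30 cytosolic ribosomal protein genes were tested, and 4 were raised (2 without E419Q A, empty vector B, WT A or WT B, 1 without E419Q B and with DESeq2) and 4 lowered (2 without empty vector A, 1 without E419Q A), with a median of 0.03. All 26 nuclear genes of oxidative phosphorylation were tested, and 1 was raised (2 without empty vector A, 0 with DESeq2) and 1 lowered (0 without E419Q A, E419Q B or empty vector A and with DESeq2), with a median of 0.04. All 13 mitochondrially encoded genes were tested, and 5 were raised (3 without empty vector B and with DESeq2, 2 without E419Q A, 1 without E419Q B) and none lowered (1 without WT A or WT B), with a median of 0.11 and changes of at most 0.31 on the log2 scale. Mitochondrial genes took 2.74% to 3.02% of the counts of the libraries in the fit.

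Cell cycle genes moved by small amounts, none reaching 2-fold. All 30 genes of the G1 to S transition were tested, and 2 were raised (1 without E419Q A or empty vector B, 0 without E419Q B or empty vector A and with DESeq2) and 2 lowered (1 without E419Q B, 0 without E419Q A or empty vector B and with DESeq2), with a median of -0.09. All 28 genes of G2 and mitosis were tested, and 9 were raised (5 without E419Q A, 3 without E419Q B or empty vector B, 2 with DESeq2) and 1 lowered, with a median of 0.21. TOP2A, topoisomerase 2 alpha, rose from 441 and 434 CPM to 576 and 579 CPM (log2 fold change 0.37, SE 0.0572, edgeR adjusted p = 4.8e-05) and the spindle protein NUSAP1 from 115 and 119.7 CPM to 154 and 160.2 CPM (log2 fold change 0.39, edgeR adjusted p = 0.000827), while the factor MYBL2 fell from 284 and 345 CPM to 213 and 232 CPM (log2 fold change -0.54, edgeR adjusted p = 4.53e-05). Of 16 G1 cyclins, their kinases and inhibitors, 13 were tested, and 1 was raised (0 without E419Q B or empty vector A and with DESeq2) and 4 lowered, with a median of -0.16. CCND2, CDK4 and the inhibitor CDKN1A fell by 0.63, 0.38 and 0.79 on the log2 scale (edgeR adjusted p = 1.09e-05, 0.00121 and 9.57e-05). Of 25 p53 targets, 23 were tested, and 3 were raised (1 with DESeq2) and 7 lowered (4 without E419Q A, 3 with DESeq2), with a median of -0.09. Besides CDKN1A, the lowered members with the smallest adjusted p were SFN, from 865 and 865 CPM to 649 and 602 CPM, and PLK2, from 165 and 148 CPM to 112 and 90.6 CPM.

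Antigen presentation genes were lowered or not called. Of 16 genes of antigen presentation and immune checkpoints, 15 were tested, and none was raised and 8 lowered (5 without empty vector B, 4 without E419Q A and with DESeq2), with a median of -0.35. HLA-B, a class I heavy chain that shares reads with its paralogs, fell from 460.4 and 482 CPM to 285 and 357 CPM (log2 fold change -0.58, SE 0.0769, edgeR adjusted p = 6.66e-06). B2M, the class I light chain, fell from 454 and 454 CPM to 341 and 379.5 CPM (log2 fold change -0.36, edgeR adjusted p = 0.000268), and CD47, the signal against phagocytosis, from 91.2 and 118 CPM to 66.0 and 60.0 CPM (log2 fold change -0.78, edgeR adjusted p = 2.47e-05). The checkpoint ligand CD274, PD-L1, had a low level throughout, at 3.25 and 1.78 CPM with E419Q against 5.5 and 6.68 CPM with the empty vector (log2 fold change -1.32, edgeR adjusted p = 0.0283, adjusted p = 0.519 with DESeq2, 0.0546 without E419Q A, 0.282 without E419Q B, 0.0641 without empty vector A and 0.218 without empty vector B). Of 30 interferon response genes, 22 were tested, and 1 was raised (0 without empty vector B and with DESeq2) and 1 lowered, with a median of 0.09. IFITM3 was lowered from 181 and 158 CPM to 90.1 and 118 CPM (log2 fold change -0.73, edgeR adjusted p = 1.5e-05) and STAT2 was raised from 32.7 and 24.5 CPM to 43.6 and 46.1 CPM (log2 fold change 0.64, edgeR adjusted p = 0.00243, adjusted p = 0.146 with DESeq2 and 0.0786 without empty vector B). Of 30 NF-kB targets and inflammatory cytokines, 16 were tested, and 3 were raised and 2 lowered, with a median of -0.05. PTGS2, the inducible cyclooxygenase, fell from 41.1 and 34.5 CPM to 5.53 and 7.43 CPM, a 5.84-fold drop (log2 fold change -2.55, SE 0.215, edgeR adjusted p = 9.47e-09). TNFAIP3, an inhibitor of NF-kB, fell from 44.6 and 36.8 CPM to 18.2 and 24.1 CPM (log2 fold change -0.95, edgeR adjusted p = 0.000206), and NAMPT was the member that rose most.

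The KLF and SP factors share a zinc-finger domain and bind related GC-rich boxes. Of 26 KLF and SP genes, KLF5 included, 17 were tested, and 2 were raised and 3 lowered (1 without E419Q A, 0 with DESeq2), with a median of -0.18. Besides KLF5, KLF13 was raised, from 67.1 and 61.8 CPM to 98.2 and 106 CPM (log2 fold change 0.64, SE 0.101, edgeR adjusted p = 6.09e-05). KLF4, a factor of epithelial differentiation, was lowered from 55.0 and 50.2 CPM to 38.7 and 30.6 CPM (log2 fold change -0.63, edgeR adjusted p = 0.00102, adjusted p = 0.0703 with DESeq2 and 0.0545 without E419Q B). KLF6 was lowered from 31.0 and 25 CPM to 12 and 18.1 CPM (log2 fold change -0.89, edgeR adjusted p = 0.00167, adjusted p = 0.0553 with DESeq2 and 0.0597 without E419Q A). KLF16 was lowered from 39.6 and 43.5 CPM to 27.3 and 33.3 CPM (log2 fold change -0.49, edgeR adjusted p = 0.0119, adjusted p = 0.334 with DESeq2, 0.155 without E419Q A and 0.0956 without empty vector B). The other 12, which are SP1, SP2, SP3, SP4, SP6, KLF2, KLF3, KLF7, KLF9, KLF10, KLF11 and KLF12, were not called, with log2 fold changes from -0.49 to 0.85 and edgeR adjusted p from 0.0676 to 0.997. Per transcript length KLF5 was the most abundant family member in both groups, and KLF13 (33.0 TPM) and KLF10 (30.5 TPM) were next with E419Q. Of 19 genes remembered from the literature as KLF5 targets, 18 were tested, and 6 were raised (3 without E419Q A or E419Q B, 2 with DESeq2) and 6 lowered, with a median of -0.05. FGFBP1, a carrier of FGFs, rose from 225 and 238 CPM to 334 and 324 CPM (log2 fold change 0.47, edgeR adjusted p = 8.66e-05), and PPARG, the adipogenic nuclear receptor, rose from 1.16 and 0.215 CPM to 4.23 and 2.97 CPM (log2 fold change 2.43, edgeR adjusted p = 0.0128, adjusted p = 0.152 without E419Q A, 0.0564 without E419Q B and 0.236 without empty vector B). KRT5 and CDKN1A of this list fell, as did TAGLN, the smooth muscle gene transgelin, from 16.5 and 10.3 CPM to 3.25 and 5.35 CPM (log2 fold change -1.62, edgeR adjusted p = 0.000958, adjusted p = 0.0518 with DESeq2).

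Genes of lung and intestinal lineages were largely silent. Of 20 lung lineage genes, 5 were tested, and 3 were raised and 1 lowered (0 with DESeq2), with a median of 1.99, the same with SFTPD at its bound. AGR2, a protein disulfide isomerase of secretory epithelium, rose from 5.79 and 7.97 CPM to 34.5 and 34.5 CPM (log2 fold change 2.26, SE 0.194, edgeR adjusted p = 1.28e-08). SFTPD, surfactant protein D, had 21 counts with E419Q and 0 with the empty vector, at least 8.80-fold higher (edgeR adjusted p = 0.00042). The forkhead factor FOXA2 rose from 1.74 and 2.15 CPM to 11.7 and 4.76 CPM (log2 fold change 1.99, edgeR adjusted p = 0.00334, adjusted p = 0.0803 with DESeq2 and 0.186 without E419Q A), and FOXA1 fell from 22.6 and 21.7 CPM to 12 and 12.8 CPM (log2 fold change -0.86, edgeR adjusted p = 0.00144, adjusted p = 0.123 with DESeq2). The surfactant genes SFTPA1, SFTPB and SFTPC were at 0 in all 4 libraries. Of 20 intestinal and stomach genes, 4 were tested, and none was raised and 1 lowered, with a median of -0.56; OLFM4 was that gene. Of 15 replication-dependent histone genes, 4 were tested, and none was raised and none lowered, with a median of 0.31. Their messages lack poly(A) tails and are poorly captured in poly(A) RNA.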

How the data were processed

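Poly(A) RNA sequencing of 4 HCC95 libraries was compared, 2 with KLF5 E419Q and 2 with the empty vector. The 2 libraries with wild-type KLF5 entered the fit for the spread alone. The authors mapped reads to hg19 with STAR and quantified genes with RSEM, per the submitters' processing notes. The deposited expected counts are RSEM's estimates per gene and were rounded to whole numbers here. The deposited TPM and the abundance-weighted transcript length (per the file headers) were used for KLF5 and its family only.

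Rows held 57820 gene IDs, of which 52338 matched GENCODE 29 for the gene type, 19263 of them protein-coding. Genes were kept by edgeR's filterByExpr over the 6 libraries, scaled by TMM and tested with the quasi-likelihood test (edgeR 4.0.16, limma 3.58.1, R 4.3.3) with Benjamini-Hochberg adjustment over all 12933 genes. The script was tested on simulated counts. Alternatives were DESeq2 1.42.0, other scalings and filters, the 4 libraries alone, a replicate block and each library left out. limma voom was added after seeing the data. Tables and plots used Python 3.11.15, numpy 2.4.6, pandas 2.3.3, scipy 1.17.1 and matplotlib 3.10.9.

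Named are KLF5, FOXE1 and NAMPT, the 12 largest rises and 12 largest falls among called protein-coding genes (no overlap of groups, at least 5 CPM in the higher group), the 3 largest of each among other genes, in each list the called members with the lowest adjusted p (at most 3), and all tested KLF and SP genes. The genes, lists and rules were chosen with earlier results of these data known. Counting intervals cover counting error only, since reads without molecular identifiers are not independent molecules. No source used here says whether counting used strand. Promoters are RefSeq's on GRCh38.p14 and were matched by symbol, taking the first listed of a symbol unless stated. No other coordinates are printed.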

Additional observations from a re-analysis of the deposited data

How the results depend on the processing

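DESeq2 was the alternative that moved the counts most. It called 451 raised and 512 lowered genes, 167 and 99 of them at least 2-fold, and 962 of its calls were shared with edgeR. The cause was not tested. Leaving out 1 library gave between 822 and 1255 raised and between 804 and 1348 lowered genes, and between 271 and 343 raised and between 175 and 199 lowered at least 2-fold, where fewer libraries enter the fit. A lone library of a group was then assumed to vary like the others. Other scalings, filters, the 4 libraries alone and limma voom kept all 4 counts within 1.5 times. No pairing of libraries by the letters A and B was seen: deviations of same-lettered libraries correlated at -0.034, 0.025 and -0.020 across genes. Counting noise makes up much of these deviations, so low correlations cannot exclude a pairing. With the replicate block 1306 genes were raised and 1380 lowered, 324 and 195 of them at least 2-fold. Of 128 named genes called besides KLF5, 107 kept their call in every alternative that tested them, and none changed direction. KLF5 kept its rise in all of them. A level of 3 counts is 0.646 to 0.976 CPM, so genes under that level could not be told from 0.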

Other observations

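Genes outside the lists and the rule for named genes showed other large differences; they were picked after their values were seen. TNS1, the focal adhesion protein tensin 1, rose from 16.8 and 18.7 CPM to 189 and 191 CPM (log2 fold change 3.38, SE 0.109, edgeR adjusted p = 1.18e-15). UPK3B, a uroplakin of urothelium and mesothelium, rose from 11 and 13.8 CPM to 119 and 121 CPM (log2 fold change 3.22, edgeR adjusted p = 1.1e-13), and the scaffold gene PDZD2 from 9.55 and 12.1 CPM to 101 and 101 CPM (log2 fold change 3.17, edgeR adjusted p = 1.1e-13). CA12, a membrane carbonic anhydrase, rose from 5.79 and 6.68 CPM to 56.3 and 55 CPM (log2 fold change 3.11, edgeR adjusted p = 5.81e-11). In these 4 genes the libraries of a group lay close together and the groups did not overlap. ST6GALNAC1, the sialyltransferase that makes the sialyl-Tn antigen, rose from 2.32 and 1.72 CPM to 21.1 and 20.5 CPM (log2 fold change 3.34, edgeR adjusted p = 2.07e-08). FOLR1, the folate receptor alpha, had 30 counts with E419Q and 0 with the empty vector, at least 12.6-fold higher (edgeR adjusted p = 6.12e-05).

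RET, a receptor tyrosine kinase, rose from 1.45 and 1.51 CPM to 10.4 and 11 CPM (log2 fold change 2.8, edgeR adjusted p = 1.26e-05), while GFRA1, the coreceptor that presents GDNF to RET, fell from 145 and 152 CPM to 114 and 117 CPM (log2 fold change -0.39, edgeR adjusted p = 0.001). NTRK2, the BDNF receptor, rose from 48.6 and 43.1 CPM to 127 and 139 CPM (log2 fold change 1.52, edgeR adjusted p = 1.39e-10). ROS1 rose from 0.289 and 1.08 CPM to 4.55 and 5.65 CPM (log2 fold change 2.71, edgeR adjusted p = 0.00257, adjusted p = 0.138 with DESeq2 and 0.0638 without E419Q B). KIT had 30 counts with the empty vector and 2 with E419Q, a ratio of 11.9 (95% counting interval 3.03 to 103, edgeR adjusted p = 0.00276, adjusted p = 0.0591 without E419Q B). WNT11 rose from 1.16 and 3.01 CPM to 19.2 and 12.5 CPM (log2 fold change 2.78, edgeR adjusted p = 5.87e-06) and SOX9, a progenitor factor of the airway, from 12.7 and 12.9 CPM to 30.3 and 35.4 CPM (log2 fold change 1.32, edgeR adjusted p = 4.15e-06).

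The neighbouring imprinted genes H19 and IGF2 fell together. IGF2 went from 15.9 and 14.6 CPM to 2.93 and 2.97 CPM (log2 fold change -2.38, edgeR adjusted p = 8.38e-06), beside the fall of H19 with the 12 largest changes. Among the type IV collagen chains looked at, which leave out COL4A3, the rise of COL4A4 was not shared by the abundant COL4A1. COL4A1 fell from 176 and 180.0 CPM to 139.9 and 132 CPM (log2 fold change -0.42, edgeR adjusted p = 0.000276). COL4A2, COL4A5 and COL4A6 were not called, with log2 fold changes of -0.09, -0.08 and 0.07 (edgeR adjusted p = 0.411, 0.605 and 0.653). ITGB6, the epithelial integrin chain that activates TGF-beta, fell from 28.4 and 38.5 CPM to 17.9 and 18.1 CPM (log2 fold change -0.94, edgeR adjusted p = 0.000305).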
